A study of Mus musculus with 6 samples.

Results

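Solute carriers are membrane proteins that move sugars, amino acids, peptides, vitamins, ions, metals and lipids across the plasma membrane and the membranes of organelles. They are numbered in families by sequence, and a member of a family usually shares its kind of substrate with the others. In the epidermis they feed dividing basal cells, keep ion and metal gradients and bring in fatty acids for the barrier. The genes described here are those whose mouse symbol is Slc followed by a digit, without the mitochondrial carriers (SLC25) and without Slc2a1, Slc7a1, Slc7a2, Slc7a11, Slc16a1 and Slc16a3. The authors' deposited table holds 327 such symbols. Of these, 101 were listed at 0 in every row, and 226 had a fold change. They stand among 15815 genes with a fold change in all. Of the 226, 152 had an adjusted p-value and could be called, against 11038 genes in all. The 74 others had base means (the authors' mean normalized count over the libraries compared) of at most 3.51.

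The cells were primary epidermal keratinocytes from wild-type C57BL/6 mouse pups, 1 to 3 days old, grown in medium with 0.05 mM calcium, which keeps them in a little-differentiated state. The first group was transfected with pro-miR-148a (200 nM), which raises the microRNA miR-148a (3 libraries), and the other with a control small RNA named miR-Control (3 libraries). RNA was taken 48 h later. The titles of the controls are numbered 1, 2 and 3, but 2 of the 3 miR-148a titles carry the number 1 before different replicate numbers. The labels do not say whether these 2, or any other libraries of a group, came from separate cultures or animals, so the p-values may measure technical spread only. The authors' deposited table has no value per library. Values per sample and the depth of each library could therefore not be shown, and every error below is the authors' standard error (SE) of the log2 fold change.

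Which group stands on top of the fold change is not stated in the table. The direction was read from the sites of the microRNA and from the table's title, which names control before miR-148a. The mature strand miR-148a-3p, from RefSeq (GRCm38.p6, chromosome 6, minus strand), is shown with its seed, bases 2 to 8, in capitals, because its complement is the motif searched for.
miR-148a-3p: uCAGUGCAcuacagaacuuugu
The seed pairs with TGCACTG in a 3′ untranslated region (UTR), called a 7mer-m8 site, and TGCACTGA is called an 8mer. Only the sense strand was searched, and each 8mer contains a 7mer-m8. With the sign turned, so that positive is higher with miR-148a, the 406 genes with an 8mer had a median log2 fold change of -0.11 in the authors' deposited table, against 0.01 for the 7770 genes with neither of these sites nor GCACTGA, a 7mer-A1 site. Their 3′ UTRs differed in length, with medians of 2285 and 896.5 bases. Among genes with UTRs of 1000 to 4000 bases, a range chosen after seeing the data, the medians were -0.11 for the 248 with an 8mer and 0.01 for the 3269 with no site, with UTR medians of 2080 and 1776 bases. Over UTRs of any length, by adjusted p, 29.3% of the genes with an 8mer were lower and 11.6% higher, against 16.2% and 18.7% of those with no site. Rock1, the kinase gene that the study followed as a target, was lower in this reading (authors' deposited table: log2 fold change -0.26 ± 0.09 SE, adjusted p = 0.0106). Every direction below rests on this reading and would turn with it, and the sites are therefore no independent evidence that any gene fell.

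By the authors' adjusted p at 0.05, 21 of the 152 tested solute carriers rose with miR-148a (13.8%), 34 fell (22.4%) and 97 did not pass. Over all 11038 tested genes 16.7% rose and 16.8% fell, together 33.5%, against 36.2% of the solute carriers. The share of solute carriers called at all was thus near the background. Large changes lay mostly on the lower side. More than 2-fold lower were 16 solute carriers (10.5%, against 4.48% of all tested genes), and more than 2-fold higher were 2 (1.32%, against 2.31%). The median log2 fold change was -0.04 over the tested solute carriers and -0.01 over all tested genes. The differences between these shares were not tested, since the genes are not replicates of the treatment.

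**Figure D1:**
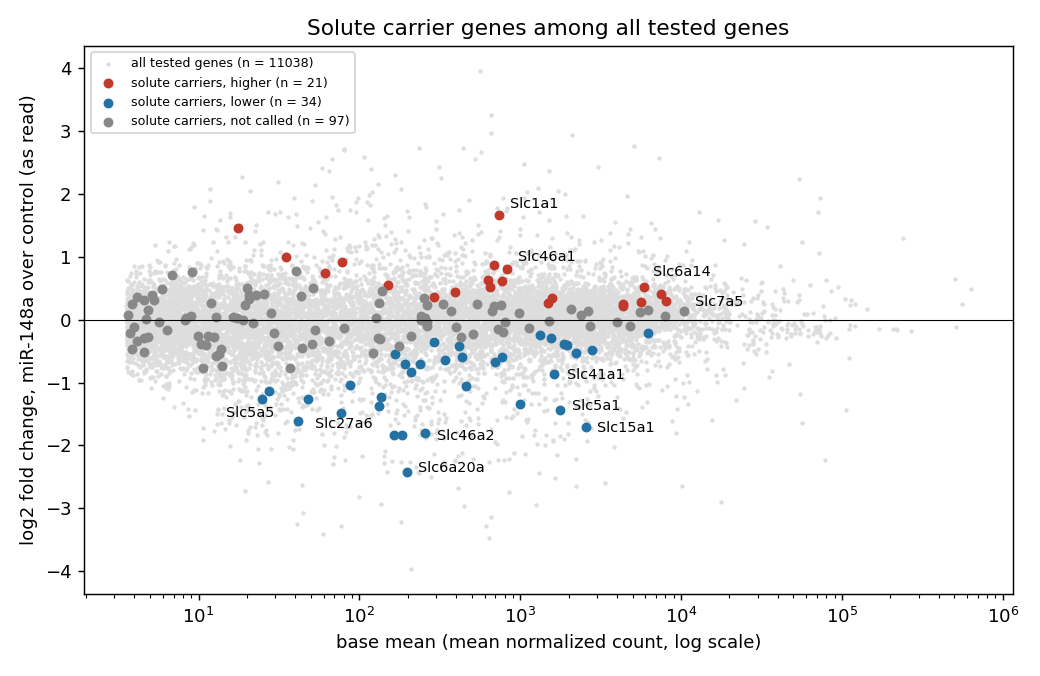
Log2 fold change, miR-148a over control as read here, against base mean on a log scale, for the 152 tested solute carriers (red higher, blue lower, dark grey not called) over all 11038 tested genes (pale grey). Slc6a20a lies lowest of the solute carriers at -2.42 and Slc1a1 highest at 1.66.

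How often a solute carrier was called followed its base mean. At base means of 1000 or more, 8 of 30 rose and 10 fell, and all but 2 of these 18 changes were smaller than 2-fold. Between 100 and 1000, 9 of 55 rose and 18 fell, against 19.7% and 22.4% of all genes there. Under 100, 4 of the 67 tested rose and 6 fell, against 3.27% and 7.71% of all tested genes there. The median SE of these 67 was 0.37, against 0.08 for the solute carriers at base means of 1000 or more. At base means of 1000 or more, 31.7% of all genes rose and 24.2% fell, against 26.7% and 33.3% of the solute carriers.

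**Figure D2:**
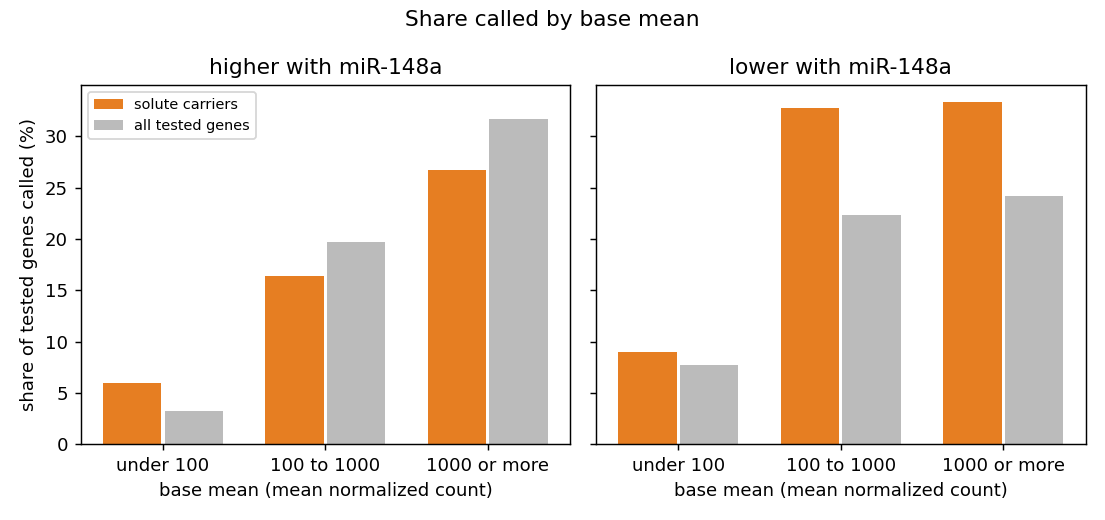
Share of tested genes called higher (left) and lower (right) with miR-148a in 3 ranges of the base mean, for solute carriers (orange) and all tested genes (grey). Between 100 and 1000, 32.7% of the solute carriers and 22.4% of all genes were lower, and 16.4% and 19.7% were higher.

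The number of RefSeq rows of a gene also moved with its values. Of the 114 tested solute carriers with 1 row each, 51 were called (44.7%), and of the 38 with 2 or more rows 4 were (10.5%). Of all tested genes with 1 row 39.1% were called, so a high share there was not particular to solute carriers. Of all tested genes with any number of rows 33.5% were called, so those with 2 or more rows were called less often. A lower share with 2 or more rows was thus not particular to solute carriers either. Median base means were 277.3 for the solute carriers with 1 row and 13.9 for those with 2 or more. The amino acid exchanger subunit Slc3a2, the partner of Slc7a5 at the cell surface, shows the difference in scale. Its 2 rows had base means of 17.2 and 3.78, against 10427 for Slc7a5, in the authors' deposited table. Of the 101 solute carriers listed at 0, 63 have 2 or more rows. A row of a gene with several rows may therefore not stand for the gene, and a listing at 0 is not a measurement of absence. Base means are also not per length, so they are given for precision and not to rank genes by level.

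Of the 47 SLC families with a fold change, 31 had a called member. Over transporters alone, only falls were called in 16 families, only rises in 8, and both in 7. Families differ in size, from 1 tested member, as in SLC28, SLC34 and SLC43, to 17 in SLC35. Several families therefore count a single gene, and these counts are no result about direction. Of all tested genes 16.8% fell and 16.7% rose.

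**Figure D3:**
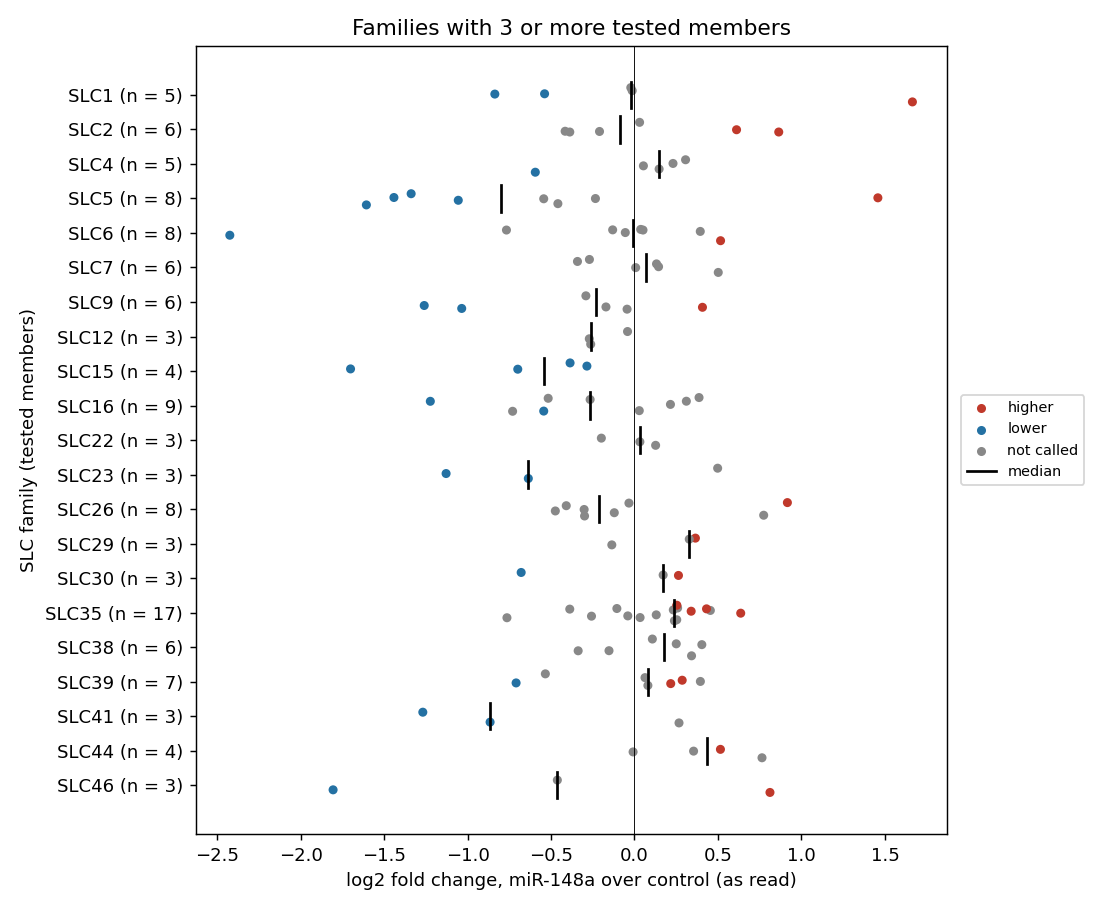
Log2 fold change, miR-148a over control as read here, of every tested solute carrier in the 21 families with 3 or more tested members, with the 3 symbols that are no transporters included (red higher, blue lower, grey not called, black line the median). All 4 members of SLC15 lie below 0, and SLC5 has 4 members below -1 and 1 above 1.

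In SLC5, the family of sodium-coupled uptake carriers, 4 of 8 tested members fell, 1 rose and 3 missed the threshold (median -0.80). Of all tested genes 16.8% fell and 16.7% rose. Slc5a1, the sodium-glucose cotransporter SGLT1, fell 2.71-fold (authors' deposited table: log2 fold change -1.44 ± 0.11 SE, adjusted p = 3.09e-37, NM_019810, base mean 1762). Slc5a8, a sodium-coupled carrier of lactate and short-chain fatty acids, fell 2.53-fold (authors' deposited table: -1.34 ± 0.10 SE, NM_145423, base mean 997.9). Slc5a9, which carries mannose and glucose in human, fell 2.08-fold (authors' deposited table: -1.06 ± 0.13 SE, base mean 459.0). The iodide symporter gene Slc5a5, known from the thyroid, fell 3.04-fold (authors' deposited table: -1.61 ± 0.34 SE, base mean only 41.6). The one member that rose was Slc5a7, the choline transporter of cholinergic neurons, at a base mean of 17.7 (authors' deposited table: 1.46 ± 0.38 SE, adjusted p = 0.00077). The inositol carrier Slc5a3 missed the threshold (authors' deposited table: -0.23 ± 0.14 SE, adjusted p = 0.212).

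Of the 5 tested facilitative sugar carriers of SLC2, 2 rose, against 16.7% of all tested genes. The other 3 missed the threshold, and the median of the 5 was 0.03. Slc2a3, the high-affinity glucose transporter GLUT3, rose 1.82-fold (authors' deposited table: 0.86 ± 0.14 SE, adjusted p = 1.51e-08, base mean 688.0). Slc2a5, the fructose transporter GLUT5, rose 1.53-fold (authors' deposited table: 0.61 ± 0.11 SE, adjusted p = 6.52e-07, base mean 767.3). Slc2a13 (-0.42 ± 0.34 SE) and Slc2a10 (-0.21 ± 0.34 SE) lay below 0 without passing in the authors' deposited table. Slc37a1, a sugar-phosphate carrier of the endoplasmic reticulum, rose 1.68-fold (0.75 ± 0.28 SE, adjusted p = 0.0259) in its row with the higher base mean, 60.9, in the authors' deposited table. Its other row, at a base mean of 15.4, had -0.26 ± 0.39 SE and did not pass. Slc50a1, a sugar carrier of the SWEET family, fell 1.33-fold (authors' deposited table: -0.41 ± 0.13 SE, adjusted p = 0.00707).

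The oligopeptide family SLC15 was the one family with at least 2 tested members in which all fell, 4 of 4. Of all tested genes 16.8% fell. Slc15a1, the proton-coupled di- and tripeptide transporter PEPT1 known from the gut, fell 3.25-fold (authors' deposited table: -1.70 ± 0.10 SE, adjusted p = 7.03e-69, NM_053079, base mean 2582). Slc15a2, its kidney and brain relative PEPT2, fell 1.62-fold (authors' deposited table: -0.70 ± 0.16 SE, base mean 236.7). The peptide and histidine transporters of endosomes and lysosomes fell less in the authors' deposited table, Slc15a3 by 1.31-fold (-0.39 ± 0.09 SE, base mean 1873) and Slc15a4 by 1.22-fold (-0.28 ± 0.08 SE, base mean 1555). Slc15a3 is known from macrophages. Of 5 tested immune markers 3 fell, against 16.8% of all tested genes. They were Lyz2, C1qa and C1qb, with base means from 10.6 to 43.8. The authors' deposited table lists Ptprc, Cd74 and Cd207 at 0. The part of such cells in the fall of Slc15a3 was not tested.

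Amino acid carriers moved apart within their families. In SLC1, Slc1a1, the glutamate, aspartate and cysteine transporter EAAT3, rose 3.17-fold (authors' deposited table: 1.66 ± 0.14 SE, adjusted p = 2.02e-32, NM_009199, base mean 740.1). This was the highest fold change of any solute carrier described here. Its relative Slc1a3, the glutamate transporter GLAST of glia, fell 1.79-fold (-0.84 ± 0.20 SE) and Slc1a5, the glutamine carrier ASCT2, fell 1.45-fold (authors' deposited table: -0.54 ± 0.08 SE, base mean 2210). Slc1a4, a carrier of alanine, serine and cysteine, had -0.02 ± 0.10 SE (authors' deposited table: adjusted p = 0.901).

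In SLC6, Slc6a20a, a proline transporter, fell 5.36-fold (authors' deposited table: -2.42 ± 0.20 SE, adjusted p = 3.76e-33, NM_139142, base mean 198.9). It was the lowest fold change of the 152. Its neighbour on chromosome 9 and near copy, Slc6a20b, had a base mean of 2.66 and no adjusted p, and reads could be split between them. Slc6a14, a carrier of neutral and cationic amino acids, rose 1.43-fold (authors' deposited table: 0.52 ± 0.09 SE, adjusted p = 3.37e-07, base mean 5848). The taurine transporter gene Slc6a6 had 0.05 ± 0.07 SE at a base mean of 7979 (authors' deposited table: adjusted p = 0.67). Slc43a3, whose family also holds amino acid carriers, fell 2.80-fold at a base mean of 77.2 (authors' deposited table: -1.49 ± 0.29 SE).

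No tested member of SLC7 (0 of 6) or of SLC38 (0 of 6) passed, against 33.5% of all tested genes. These families hold the large neutral and the sodium-coupled neutral amino acid carriers. Slc7a5, the large neutral amino acid exchanger LAT1, had the highest base mean of the solute carriers described here. Its log2 fold change was 0.13 ± 0.07 SE (authors' deposited table: adjusted p = 0.153). Of these 12, Slc7a5, Slc38a7, Slc38a9 and Slc7a8 had the highest base means. The range over the 12 was -0.34 to 0.50, and the median SE was 0.35 in SLC7 and 0.22 in SLC38, so small changes in most of them were not detectable at this precision.

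**Figure D4:**
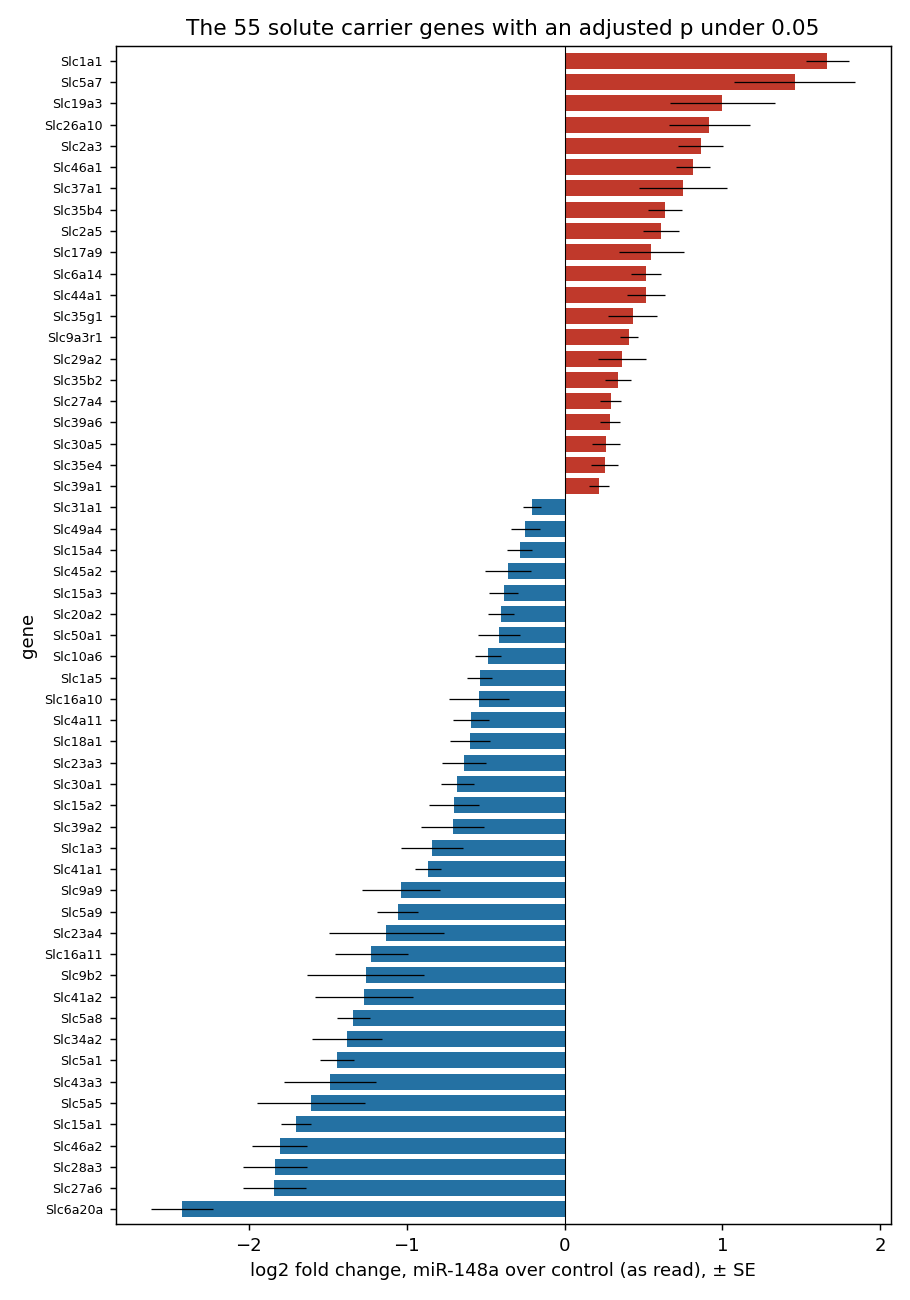
The 55 solute carriers with an adjusted p under 0.05, ordered by log2 fold change, miR-148a over control as read here (bars, with the authors' SE as error lines). The 21 that rose (red) reach 1.66 and the 34 that fell (blue) reach -2.42.

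Zinc carriers split by member. Zinc leaves the cytosol through SLC30 proteins and enters it through SLC39 proteins. Slc30a1, the plasma membrane exporter ZnT1, fell 1.60-fold (authors' deposited table: -0.68 ± 0.11 SE, adjusted p = 2.48e-09, base mean 698.0). Slc30a5, which loads zinc into the secretory pathway, rose 1.20-fold (authors' deposited table: 0.26 ± 0.09 SE, adjusted p = 0.00957). Slc39a2, a plasma membrane importer of the epidermis, fell 1.63-fold (authors' deposited table: -0.71 ± 0.20 SE, adjusted p = 0.00181). The importers Slc39a6 (1.22-fold, base mean 5602) and Slc39a1 (authors' deposited table: 1.16-fold, base mean 4386) rose. Slc39a8 just missed the threshold (authors' deposited table: -0.53 ± 0.22 SE, adjusted p = 0.0535). The zinc-binding metallothionein genes Mt2 (-0.65 ± 0.10 SE, base mean 5600.2) and Mt1 (authors' deposited table: -0.26 ± 0.09 SE, base mean 9210) fell. Zinc is known to induce these genes and Slc30a1 through the transcription factor Mtf1, which itself rose 1.15-fold (authors' deposited table: 0.20 ± 0.08 SE, adjusted p = 0.0483). Whether zinc or Mtf1 had a part in these changes was not tested.

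Of the 3 magnesium carriers of SLC41, 2 fell, against 16.8% of all tested genes. Slc41a1, a sodium-magnesium exchanger, fell 1.82-fold (authors' deposited table: -0.86 ± 0.08 SE, adjusted p = 5.4e-24, NM_173865, base mean 1627). Slc41a2 fell 2.41-fold at a base mean of 48.3 (authors' deposited table: -1.27 ± 0.31 SE, adjusted p = 0.000268). Slc41a3, with few reads, had 0.27 ± 0.39 SE and did not pass in the authors' deposited table.

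Of 5 tested carriers of copper, iron and heme, 1 was called, against 33.5% of all tested genes. Slc31a1, the copper importer CTR1, fell 1.15-fold (authors' deposited table: -0.21 ± 0.06 SE, adjusted p = 0.00228, base mean 6216). This was the smallest change that was called among the solute carriers described here. The iron exporter gene Slc40a1, ferroportin, had 0.15 ± 0.08 SE (adjusted p = 0.141) and the heme carrier Slc48a1 had -0.10 ± 0.06 SE (authors' deposited table: adjusted p = 0.271). Slc11a2, the divalent metal importer DMT1, had -0.43 ± 0.19 SE (authors' deposited table: adjusted p = 0.0791). Ftl1, the light chain of the iron store ferritin, rose 1.80-fold (authors' deposited table: 0.85 ± 0.06 SE, base mean 41529).

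Within SLC46, grouped here by family number with carriers of vitamins and nucleosides, members changed in opposite directions. Slc46a1, the proton-coupled folate transporter, rose 1.75-fold (authors' deposited table: 0.81 ± 0.11 SE, adjusted p = 6.08e-13, base mean 825.9). Its relative Slc46a2 fell 3.49-fold (authors' deposited table: -1.80 ± 0.17 SE, adjusted p = 4.82e-24, base mean 254.7). Slc28a3, a sodium-coupled nucleoside transporter, fell 3.56-fold (authors' deposited table: -1.83 ± 0.20 SE, adjusted p = 2.66e-18). Slc29a2, an equilibrative nucleoside transporter, rose 1.29-fold just inside the threshold (authors' deposited table: 0.36 ± 0.15 SE, adjusted p = 0.0489). The thiamine transporter gene Slc19a3 rose at a base mean of 35.2 (authors' deposited table: 1.00 ± 0.33 SE, adjusted p = 0.0104). In SLC23, 2 of 3 tested members fell, against 16.8% of all tested genes. They were Slc23a3 (-0.64 ± 0.14 SE) and Slc23a4 (authors' deposited table: -1.13 ± 0.36 SE). The vitamin C carrier Slc23a1 lay the other way without passing (authors' deposited table: 0.50 ± 0.31 SE, adjusted p = 0.23).

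Fatty acid carriers also went both ways. Slc27a4, the fatty acid transport protein FATP4 that the epidermal barrier needs, rose 1.22-fold (authors' deposited table: 0.29 ± 0.07 SE, adjusted p = 0.00011, base mean 8013). Slc27a6, the related FATP6, fell 3.58-fold (authors' deposited table: -1.84 ± 0.20 SE, adjusted p = 6.69e-19, base mean 184.0). Slc44a1, a choline transporter, rose 1.43-fold (authors' deposited table: 0.51 ± 0.12 SE, adjusted p = 8.9e-05).

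Among the SLC35 carriers, some of which bring nucleotide sugars into the Golgi and endoplasmic reticulum, 4 of 17 tested rose and none fell. The median was 0.24. This share, 23.5%, stands beside 16.7% of all tested genes. Slc35b4, a carrier of UDP-sugars, rose 1.55-fold (authors' deposited table: 0.64 ± 0.11 SE, adjusted p = 6.38e-08). Slc35b2, which brings the sulfate donor PAPS into the Golgi, rose 1.27-fold (authors' deposited table: 0.34 ± 0.08 SE, adjusted p = 0.000328). Slc35g1 (1.35-fold, adjusted p = 0.0219) and Slc35e4 (1.19-fold, adjusted p = 0.0101) also rose in the authors' deposited table. At an adjusted p of 0.01, 2 of the 4 remained.

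In SLC9, the sodium-proton exchangers, 2 of 5 tested transporters fell and none rose, against 16.8% and 16.7% of all tested genes. Slc9a9, a sodium-proton exchanger of endosomes, fell 2.05-fold (-1.03 ± 0.25 SE, base mean 87.7) and Slc9b2, a sodium-proton antiporter, 2.39-fold (authors' deposited table: -1.26 ± 0.37 SE, base mean 24.7). Slc9a3r1, the scaffold protein NHERF1, carries an SLC symbol but is no transporter. It rose 1.33-fold (authors' deposited table: 0.41 ± 0.06 SE, adjusted p = 5.94e-11, base mean 7475). The other symbols that are no transporters did not pass (Slc4a1ap, Slc2a4rg-ps) or had no adjusted p (Slc7a6os). Slc4a11, a member of the bicarbonate family, fell 1.51-fold (authors' deposited table: -0.59 ± 0.11 SE, base mean 776.2). The sodium-potassium-chloride cotransporter gene Slc12a2, with a base mean of 3976, had -0.04 ± 0.09 SE (authors' deposited table: adjusted p = 0.792). In SLC26, a family of anion exchangers, 1 of 8 tested members passed, against 33.5% of all tested genes. It was Slc26a10, which rose 1.89-fold (authors' deposited table: base mean 78.3). Slc26a7 missed the threshold (authors' deposited table: 0.77 ± 0.34 SE, adjusted p = 0.0652, base mean 40.4). The median SE was 0.25 in SLC26 and 0.18 over all tested genes, so a low share called is no sign of unchanged genes.

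Of the phosphate carriers (SLC20 and SLC34), 2 of 3 tested fell, of the carboxylate carriers (SLC13 and SLC16) 2 of 10, and of the organic ion carriers (SLC10, SLC17, SLC18, SLC22 and SLC47) 2 of 8, against 16.8% of all tested genes. None of the first 2 groups rose, and 1 organic ion carrier did. The sodium-phosphate cotransporter gene Slc34a2 fell 2.60-fold (-1.38 ± 0.22 SE, adjusted p = 7.04e-09) and the phosphate carrier Slc20a2 fell 1.32-fold (authors' deposited table: -0.40 ± 0.08 SE, base mean 1965). In SLC16, Slc16a11 fell 2.33-fold (authors' deposited table: -1.22 ± 0.23 SE, adjusted p = 8.12e-07, base mean 136.0). The gene next to it on chromosome 11, Slc16a13, had 0.22 ± 0.12 SE (authors' deposited table: adjusted p = 0.152, base mean 687.1). Slc16a10, the aromatic amino acid transporter TAT1, fell in both of its rows, by -0.54 ± 0.19 SE and -0.99 ± 0.29 SE on the log2 scale in the authors' deposited table. Slc10a6, a carrier of steroid sulfates, fell 1.40-fold (-0.49 ± 0.08 SE, base mean 2783) and the vesicular amine transporter gene Slc18a1 fell 1.51-fold (authors' deposited table: -0.60 ± 0.13 SE). The carrier that rose was Slc17a9, the vesicular nucleotide transporter, by 1.46-fold (authors' deposited table: 0.55 ± 0.21 SE, adjusted p = 0.0267). Slc22a23, at a base mean of 5587, had 0.13 ± 0.07 SE (adjusted p = 0.175), and Slc49a4, of another family, fell 1.19-fold (adjusted p = 0.0228), in the authors' deposited table.

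Slc45a2 and Slc24a5 are carriers of the pigment cell. Slc45a2 fell 1.28-fold just inside the threshold (authors' deposited table: -0.36 ± 0.15 SE, adjusted p = 0.0477). Slc24a5 had -0.28 ± 0.13 SE and did not pass (authors' deposited table: adjusted p = 0.0912). Of 8 melanocyte markers 5 were tested and 1 fell, Mlana (-0.53 ± 0.14 SE), while Pmel (-0.04 ± 0.06 SE) and Dct (-0.11 ± 0.06 SE) did not pass. The authors' deposited table lists Tyrp1 and Kit at 0. Fewer pigment cells and less RNA per cell cannot be told apart in such bulk samples, and the part of either was not tested. Of 8 fibroblast markers, all tested, 5 fell and none rose, with a median of -0.36. All marker counts in this paragraph stand beside 16.8% of all tested genes that fell and 16.7% that rose. Without values per library, marker levels per group cannot be given. Of 5 tested keratinocyte markers 2 rose and 1 fell. Krt5 (0.49 ± 0.06 SE, base mean 630448) and Krt15 (1.64 ± 0.30 SE, base mean 2473) rose and Cdh1 (-0.21 ± 0.06 SE, base mean 36792) fell, while the authors' deposited table lists Trp63, with 8 rows, at 0. Of 5 endothelial markers 2 were tested. Kdr rose 6.65-fold and Vwf fell 1.75-fold, with base means of 438.3 and 103.9, while the authors' deposited table lists Pecam1 and Tek at 0. Erythroid globin genes were listed at 0.

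Genes that work with solute carriers were taken from a list of 28: the sodium pump, chaperones of the monocarboxylate carriers, kinases that set ion cotransport, and proteins that bind metals. Of 20 tested, 5 rose and 5 fell, with a median of -0.17, against 16.7% and 16.8% of all tested genes. Atp1b1 (-0.33 ± 0.10 SE) and Fxyd3 (-0.36 ± 0.07 SE), which encode a subunit and a regulator of the sodium pump, fell in the authors' deposited table. The gradient that this pump sets up drives the sodium-coupled carriers. Embigin, Emb, a chaperone of monocarboxylate carriers, fell 1.35-fold (authors' deposited table: -0.44 ± 0.08 SE). The kinase genes Wnk1 (2.51-fold, 1 of 5 rows, base mean 145.7) and Wnk4 (authors' deposited table: 2.13-fold, base mean 95.7) rose. Wnk kinases act on SLC12 cotransporters, of which 0 of 3 tested passed, against 33.5% of all tested genes.

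Sites for miR-148a lay in solute carriers that fell and in solute carriers that rose. An 8mer or 7mer-m8 lay in the longest annotated 3′ UTR of 22 of 147 tested members (14.97%), and of 14.7% of 9874 tested genes. Of these 22, 4 fell and 3 rose, against 22.4% and 14.7% of all tested genes with such a site. Of the 125 without one, 29 fell (23.2%) and 18 rose (14.4%), against 16.7% and 18.5% of all tested genes without one. The sites of the 7 called members are shown, from the GENCODE M21 transcripts (GRCm38, sense strand), with the site in capitals, since these are the solute carriers in which a site and a called change meet.
Slc41a1 (fell): cgcagagtcacgTGCACTGgagattcc
Slc41a2 (fell): tgtgaagggataTGCACTGttaattac
Slc9a9 (fell): ctcttccttgtgTGCACTGggacaact
Slc15a4 (fell): gcccgtctcatgTGCACTGggcctgcc
Slc26a10 (rose): actcggcggtcaTGCACTGtagccggt
Slc29a2 (rose): ctgcatgtgttgTGCACTGcactttac
Slc5a7 (rose): ctcactggctaaTGCACTGgacaccat
All 7 are 7mer-m8 sites with no A after the match. Positions count from 1 where the UTR begins, and the sites start at base 548 of 2130 in Slc41a1, 2271 of 2717 in Slc41a2, 722 of 1380 in Slc9a9 and 199 of 960 in Slc15a4. Both magnesium carriers that fell hold one. The 3 tested members with an 8mer did not pass, and are shown because the 8mer is the longer match.
Slc16a6: aatctttttctcTGCACTGAgacgaagg
Slc6a2: tggggctttattTGCACTGAaaatgcag
Slc26a4: gcaagtgttttcTGCACTGActgtttct
Their log2 fold changes were -0.73 ± 0.39 SE for Slc16a6, -0.13 ± 0.26 SE for Slc6a2 and -0.47 ± 0.33 SE for Slc26a4 in the authors' deposited table, at base means between 3.85 and 80.8. None of the 12 solute carriers that fell most at a base mean of 100 or more holds an 8mer, and 1 of them, Slc41a1, holds a 7mer-m8.

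A search of the authors' GO terms for transporter activity, symporter, antiporter or transmembrane transport, without ATPase terms, gave 25 categories. Each has at most 19 genes. Terms worded otherwise were not searched, and the 25 are not limited to the solute carriers described here. In the authors' deposited table none of them was over-represented among the changed genes, at the adjusted p or at the unadjusted p of 0.05. The smallest unadjusted p was 0.104.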

How the data were processed

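Of 6 RNA-seq libraries, 3 with miR-148a and 3 controls, the deposited files used here are a differential expression table and a GO table, neither with a column per library. The submitters' processing notes name DESeq2 and the build mm9, without version or role. Aligner, counter and annotation: not given in the sources used here. The authors' expression table holds, by its header, base means (a signal: mean normalized counts), log2 fold changes with a standard error, a Wald score, p-values and adjusted p-values. The deposited GO table gives a count of genes and p-values per category, per the file headers. A Benjamini-Hochberg adjustment of the deposited p-values over the 11757 rows with an adjusted p gave the authors' values (largest relative difference 0.00885). The SE stayed at or under 0.39 in rows with few counts too, a mark of shrunken fold changes, so folds of such rows are understated. No counting interval can be given, since depth is unknown.

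Rows were paired with symbols by RefSeq accession (42739 of 42885 matched, GRCm38.p6), with no coordinates used, as mm9 differs. Each gene is its row with the highest base mean. The authors' adjusted p at 0.05 is the call, and p-values were computed anew only for the alternatives. UTRs of at least 20 bases came from GENCODE M21. The alternative that subtracts the median of all genes uses a Wald test from the deposited fold changes and SE, and was tested on simulated data. Python 3.11.15, pandas 2.3.3 and scipy 1.17.1 were used.

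The members, the lists and the tests were chosen with earlier results of these data known. Named are the 12 highest and 12 lowest called members at a base mean of at least 100, the 10 with the highest base means, the largest called change of each family, the symbols that are no transporters, members with an 8mer that fell (there were 0), called genes of the partner list (1 is not reported here) and Rock1. Other members named in the text were chosen after their values were seen, among them Slc5a7, Slc15a2, Slc2a10, Slc2a13, Slc16a10, Slc23a1, Slc9a9, Slc23a3, Slc35e4 and Slc39a1.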

Additional observations from a re-analysis of the deposited data

How the results depend on the processing

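The counts of solute carriers that rose (21) and fell (34) were recomputed under 7 other settings, 1 of them, genes with 1 row in the table, chosen after seeing the data. The count that fell stayed within 1.5 times, from 24 to 34. The count that rose was 9 when a change of at least 1.5-fold was asked, since many rises were small, and from 15 to 21 under the others. The median of the tested solute carriers (-0.043) was -0.032 after subtracting the median of all genes (-0.011), and -0.029 over all 226 members, tested or not. The SLC15 falls numbered 2 of 4 at 1.5-fold or more, the SLC41 falls 1 at a base mean of at least 100, and the SLC35 rises 1 at 1.5-fold or more. Of the 51 named members with a test, under 3 settings each, 150 of 153 calls kept their direction and side of the threshold. This count says little about robustness, since 2 of the 3 settings could hardly change a call. The row with the lowest p-value left all 51 as they were, because most have 1 row. Subtracting the median of all genes (-0.011) moved each value only slightly. Slc29a2 was lost when p-values were adjusted over every row (adjusted p = 0.0741), and Slc45a2 was lost there (0.0725) and after subtracting the median (0.0567). With genes at a base mean of at least 100 only, the difference between genes with an 8mer and genes with no site was -0.16 in place of -0.12, and between genes with and without an 8mer or 7mer-m8 -0.092 in place of -0.078. With UTRs of 1000 to 4000 bases only, these differences were -0.12 and -0.080. No paired analysis was possible because the tables hold no value per library, and for the same reason no library could be left out.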
